A study of Mus musculus with 64 samples.

Results

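SOX2 sites found only in caudal epiblast-like cells (CEpiLC) were 639 of the 125188 SOX2 sites in this series. Each of the 12 SOX2 ChIP-seq libraries was represented by its 20000 peaks of highest deposited fold, which is the signal at the summit of a peak relative to the local background. Peaks that shared at least 1 bp were merged across libraries into sites, and a site was kept when all 3 CEpiLC libraries had a peak there and the 9 other SOX2 libraries had none. The sites were therefore chosen by their SOX2 values, which are given as a description with no test.

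ChIP-seq had been performed on mouse embryonic stem cells (ESC) and on cells differentiated from them, for 5 targets in 4 conditions with 3 biological replicates each. The targets were SOX2, β-catenin, LEF1, TCF7L1 (named TCF3 in the labels) and TCF7L2 (named TCF4 in the labels). Naive ESC were wild-type (WT) cells of the HM1 strain (129) in 2i medium, which holds inhibitors of GSK3 and MEK. The study's methods name the WT control the HM1 TetON line, the parent of its other ESC lines. CEpiLC were WT cells taken through FGF and LGK974, a blocker of WNT secretion, with the GSK3 inhibitor CHIR99021 added at the end, and were collected on day 3. SOX2-ON and SOX2-OFF cells went through the same differentiation but came from a SOX2-TetON line in which endogenous Sox2 had been ablated. A doxycycline-driven Sox2 transgene at the Hprt locus was controlled there by rtTA from Rosa26. The line was obtained by picking and screening clones, and how many clones were used is not stated. SOX2-ON cells were kept in 1 µg/ml doxycycline and SOX2-OFF cells had doxycycline withdrawn. All cells other than naive ESC had thus received FGF, LGK974 and CHIR99021. The GSK3 inhibitor of 2i medium is also CHIR99021, so it was present in all 4 conditions. Peak lists cannot show how much SOX2 protein or which cell types each culture held.

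SOX2 is a transcription factor of the high-mobility-group family that binds short AT-rich sequences, often beside a partner factor such as OCT4 in pluripotent cells. The caudal epiblast gives rise to both spinal cord and paraxial mesoderm, and its cells activate Cdx and Hox genes in response to WNT and FGF. WNT signalling stabilises β-catenin, which has no DNA-binding domain of its own and reaches chromatin through LEF1 and the TCF proteins.

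The sequences of 14 sites show the letters on which the later comparisons rest. Each is 201 bp of the plus strand of GRCm38 (mm10), read from the RefSeq assembly. Its centre is the middle of the 3 CEpiLC SOX2 summits of the site. Its name is that of the protein-coding gene with the nearest transcription start. Capitals mark matches, on either strand, to the motifs searched, which were SOX (CATTGT or CTTTGT), OCT (ATGCAAA), a SOX-OCT composite (TTGTNATGC), TCF/LEF (CTTTGAA or CTTTGAT), CDX (TTTATGG or TTTATTG), T/BRA (GGTGTG), MEIS (TGACAG), FOX (TGTTTAC), KLF/SP (GGGCGG) and the AGATAA letters of GATA factors. The first 6 are the sites where the weakest of the 3 CEpiLC β-catenin peaks ranked highest among sites whose β-catenin was likewise found only in CEpiLC.
Hoxb4, chr11:96316418-96316618: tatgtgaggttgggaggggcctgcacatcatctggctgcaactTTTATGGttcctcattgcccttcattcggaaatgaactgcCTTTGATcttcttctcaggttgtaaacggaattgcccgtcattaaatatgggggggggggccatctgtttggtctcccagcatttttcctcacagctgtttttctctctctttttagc
Meis3, chr7:16174119-16174319: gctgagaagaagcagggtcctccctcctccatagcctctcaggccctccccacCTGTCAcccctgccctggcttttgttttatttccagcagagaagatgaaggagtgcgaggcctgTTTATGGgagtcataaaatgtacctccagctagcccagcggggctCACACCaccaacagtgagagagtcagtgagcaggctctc
Gm525, chr11:89107556-89107756: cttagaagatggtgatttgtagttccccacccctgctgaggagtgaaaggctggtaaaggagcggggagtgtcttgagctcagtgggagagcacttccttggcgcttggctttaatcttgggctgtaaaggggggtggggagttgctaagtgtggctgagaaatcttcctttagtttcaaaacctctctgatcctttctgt
Mitf, chr6:97864640-97864840: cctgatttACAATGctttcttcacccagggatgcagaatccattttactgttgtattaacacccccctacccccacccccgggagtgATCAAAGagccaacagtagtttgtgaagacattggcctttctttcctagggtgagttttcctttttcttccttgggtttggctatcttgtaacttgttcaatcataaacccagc
Hes7, chr11:69118980-69119180: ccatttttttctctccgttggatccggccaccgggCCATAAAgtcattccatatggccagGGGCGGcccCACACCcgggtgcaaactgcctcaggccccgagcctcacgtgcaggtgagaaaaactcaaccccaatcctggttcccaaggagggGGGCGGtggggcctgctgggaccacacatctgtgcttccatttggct
Lrrc18, chr14:32986769-32986969: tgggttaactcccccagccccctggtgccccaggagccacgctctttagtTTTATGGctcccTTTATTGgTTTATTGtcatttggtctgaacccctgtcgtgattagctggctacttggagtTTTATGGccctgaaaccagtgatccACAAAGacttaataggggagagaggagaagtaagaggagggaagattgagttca
In the Hoxb4 window the TCF/LEF match CTTTGAT lay 14 bp to the left of the SOX2 summit and the CDX match TTTATGG lay 54 bp to the left. The Lrrc18 window held 4 CDX matches between 47 bp left and 25 bp right of the summit. In the Mitf window the reverse complement of a TCF/LEF match, ATCAAAG, lay 10 bp left of the summit, and the Gm525 window held no match to any of the 10 motifs.

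The next 8 are sites near the genes that give the caudal epiblast its axial identity, and were chosen for their position near Hox, Cdx and Meis genes and not for their letters.
Hoxa5, chr6:52204048-52204248: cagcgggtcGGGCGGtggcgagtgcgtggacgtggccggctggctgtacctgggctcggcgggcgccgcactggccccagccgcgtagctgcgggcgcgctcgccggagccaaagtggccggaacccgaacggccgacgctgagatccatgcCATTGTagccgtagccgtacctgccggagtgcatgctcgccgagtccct
Hoxb13, chr11:96177697-96177897: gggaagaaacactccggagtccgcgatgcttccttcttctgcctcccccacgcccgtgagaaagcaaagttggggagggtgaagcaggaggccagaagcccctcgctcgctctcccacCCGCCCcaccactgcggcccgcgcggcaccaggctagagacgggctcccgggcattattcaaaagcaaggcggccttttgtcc
Hoxc6, chr15:103009939-103010139: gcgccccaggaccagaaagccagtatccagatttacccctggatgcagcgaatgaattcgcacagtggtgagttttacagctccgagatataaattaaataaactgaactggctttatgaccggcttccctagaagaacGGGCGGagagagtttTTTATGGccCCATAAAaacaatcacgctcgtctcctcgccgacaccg
Hoxc12, chr15:102939679-102939879: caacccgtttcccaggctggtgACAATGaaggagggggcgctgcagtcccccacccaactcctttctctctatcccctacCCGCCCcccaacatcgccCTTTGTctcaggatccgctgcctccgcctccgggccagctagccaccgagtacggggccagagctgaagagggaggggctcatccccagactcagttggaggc
Hoxd3, chr2:74740857-74741057: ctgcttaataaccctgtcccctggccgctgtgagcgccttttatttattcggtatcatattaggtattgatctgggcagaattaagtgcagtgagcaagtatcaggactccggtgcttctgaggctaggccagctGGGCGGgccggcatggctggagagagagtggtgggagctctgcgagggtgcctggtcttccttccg
Hoxd10, chr2:74689580-74689780: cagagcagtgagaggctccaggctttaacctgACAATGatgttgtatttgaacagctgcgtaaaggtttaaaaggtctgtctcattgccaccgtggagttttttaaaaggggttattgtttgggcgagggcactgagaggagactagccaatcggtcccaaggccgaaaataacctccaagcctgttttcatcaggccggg
Cdx2, chr5:147309306-147309506: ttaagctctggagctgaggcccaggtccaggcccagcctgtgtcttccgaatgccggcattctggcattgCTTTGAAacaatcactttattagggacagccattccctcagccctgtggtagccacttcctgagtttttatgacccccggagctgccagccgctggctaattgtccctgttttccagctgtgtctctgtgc
Meis1, chr11:19015647-19015847: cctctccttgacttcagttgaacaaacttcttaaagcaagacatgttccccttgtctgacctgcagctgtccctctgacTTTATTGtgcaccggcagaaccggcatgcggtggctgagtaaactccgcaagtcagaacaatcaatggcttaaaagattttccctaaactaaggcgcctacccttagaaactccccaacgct
CDX matches were present in the Hoxc6 window, at 57 and 66 bp right of the summit, and in the Meis1 window, 18 bp left of it. The Cdx2 window held the TCF/LEF match CTTTGAA 27 bp left of the summit, and SOX matches were present at Hoxa5, Hoxc12 and Hoxd10. A match is a run of letters and does not show that the factor was bound, and windows at 2 further Hox sites overlapped a UTR and are not printed.

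The 60 immunoprecipitated libraries varied widely in length, from 1628 to 991719 peaks, and the SOX2 lists held 29298 to 907862 peaks. The longest SOX2 list was that of naive ESC replicate 1 and the shortest that of CEpiLC replicate 1. The lowest fold admitted to the top 20000 was 4.33, 5.92 and 5.32 in the 3 CEpiLC libraries, against 6.03 to 9.89 in naive ESC, 5.89 to 7.24 in SOX2-ON and 4.86 to 6.94 in SOX2-OFF. Read depth was unknown, since the lists hold no read counts.

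The 639 sites were of moderate strength. Their median SOX2 fold was 6.33, 7.53 and 7.19 in CEpiLC replicates 1, 2 and 3, and the highest folds were 42.7, 38.9 and 43.4. All of the highest folds belonged to a site within an intron of Rbfox3, which encodes a neuronal RNA-binding protein. The order of the sites by fold was only partly shared between replicates, with Spearman rho values of 0.36, 0.37 and 0.27 over the 639 sites. The sites had a median width of 503 bp, against 252 bp for all merged sites, 591 bp for the 1132 sites found only in naive ESC and 621 bp for the 1708 found only in SOX2-ON. The 3 CEpiLC summits fell within 100 bp of each other at 376 sites (58.8%).

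Absence from the other 9 libraries meant absence from their top 20000 peaks. In the full lists, naive ESC had a SOX2 peak at 64.6%, 35.8% and 27.9% of the 639 sites. The corresponding shares were 39.3%, 29.6% and 52.3% in SOX2-ON and 7.20%, 46.3% and 54.6% in SOX2-OFF. Over all merged sites they were 47.6%, 28.8% and 26.4% in naive ESC, 27.1%, 26.5% and 34.2% in SOX2-ON and 18.7%, 32.1% and 29.1% in SOX2-OFF. The 639 sites were thus below all merged sites in SOX2-OFF replicate 1 and above them in the 8 other libraries. These weaker peaks overlapped between conditions, with medians of 5.33, 4.55 and 4.53 in naive ESC, 4.83, 4.31 and 5.04 in SOX2-ON and 4.24, 4.75 and 4.61 in SOX2-OFF. Of the 639 sites, 39 had no SOX2 peak in any of the other 9 full lists, 283 had a peak in 1 to 3, 261 in 4 to 6 and 56 in 7 to 9. The 3 CEpiLC folds were all above every other library at 349 sites (54.6%), and at 430 sites when naive ESC replicate 1 was left out. SOX2 peaks were also called where Sox2 expression had been withdrawn, in at least 2 of the 3 SOX2-OFF full lists at 217 sites (34.0%), and the source of these peaks was not tested.

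The border of the set was narrow. A site at chr15:93972947-93973356 just qualified, with its CEpiLC replicate 2 peak (fold 5.92) at rank 19969 of the 20000 kept. A site at chr8:92008278-92008991 just failed, because its CEpiLC replicate 3 peak (fold 5.32) was at rank 20107, although its folds in replicates 1 and 2 were 8.67 and 7.74. Requiring the peak in 2 rather than 3 of the CEpiLC libraries, with none in the other 9, gave a further 2031 sites.

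**Figure D1:**
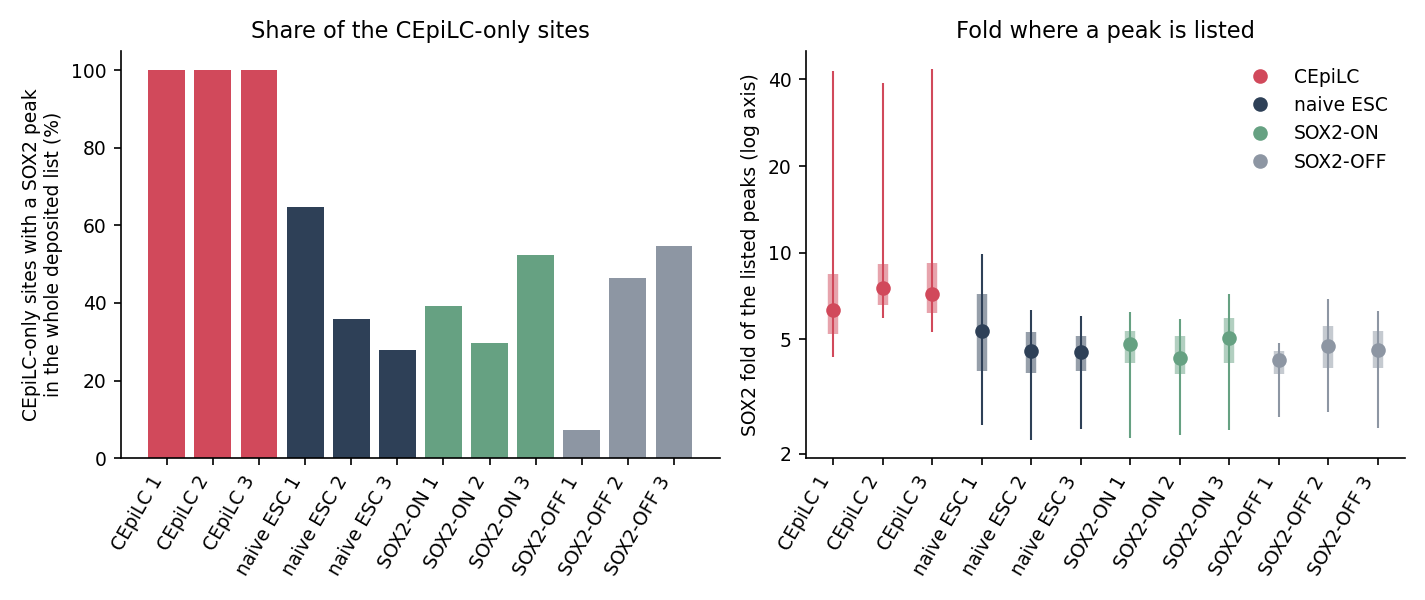
Left, share of the 639 CEpiLC-only sites (percent) with a peak in the full list of each of the 12 SOX2 libraries. Right, SOX2 fold of those peaks on a log axis, with points for medians, thick bars for the middle of the distribution between the lower and upper quartiles and thin lines for the range. All 639 sites have a peak in the 3 CEpiLC libraries by construction, and in the other libraries the share runs from 7.20% in SOX2-OFF replicate 1 to 64.6% in naive ESC replicate 1.

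The plot of SOX2 fold by library shows that the non-CEpiLC peaks end at the lowest fold kept in the top 20000 of each library, which the rule imposes.

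The 4 other targets had no part in choosing the sites. Because lists differed in length, only as many top peaks were used per library as the shortest list of its target held. These were 3423 peaks for β-catenin and 4443 for LEF1. TCF7L2 had 4134 and TCF7L1 1628. For β-catenin, 18.5%, 12.2% and 9.70% of the 639 sites had a peak in the 3 CEpiLC libraries (13.5% ± 4.51, SD, n = 3). In naive ESC the shares were 0.782%, 0.469% and 0.313%, in SOX2-ON 1.25%, 0.782% and 0.313%, and in SOX2-OFF 4.07%, 1.25% and 2.504%. All 3 CEpiLC libraries were above the 9 others. The mean share over all merged SOX2 sites was 2.56% in CEpiLC and 2.33% to 2.65% in the other conditions. Merged sites need not hold a CEpiLC SOX2 peak. At sites present in all 12 SOX2 libraries the mean was 43.1% in CEpiLC and 43.7% to 55.4% in the other conditions. Sites found only in naive ESC had a mean of 25.5% in naive ESC and 0.0883% in CEpiLC. Sites found only in SOX2-ON had 9.13% to 14.8% in the SOX2-ON libraries and 0% in CEpiLC. A higher share in the condition that defined the sites was thus not particular to CEpiLC.

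LEF1, the TCF/LEF factor that is itself induced by WNT, was also highest in CEpiLC. The CEpiLC shares were 13.6%, 12.7% and 9.55% (11.9% ± 2.13, SD, n = 3), and the other 9 libraries ranged from 0.313% to 1.88%. Over all merged sites the LEF1 means were 2.69% in CEpiLC, 1.26% in naive ESC, 1.76% in SOX2-ON and 1.06% in SOX2-OFF. The CEpiLC mean was thus highest there too. The naive ESC libraries were uneven over all merged sites, at 0.202%, 2.67% and 0.903%. TCF7L2 was present at 11.7%, 7.51% and 6.73% of the sites in CEpiLC (8.66% ± 2.69, SD, n = 3), against 1.88% to 4.23% in the other libraries, and the mean over all merged sites was 2.12% in CEpiLC and 1.34% to 1.47% in the other conditions. TCF7L1, a repressor of naive pluripotency genes, was the least frequent, at 2.19%, 2.82% and 2.19% in CEpiLC against 0% to 0.469% elsewhere, and over all merged sites its means were 1.06% in CEpiLC and 1.05% to 1.32% in the other conditions. The CEpiLC libraries stood above the other 9 for each of the 4 targets in these lists, but with all deposited peaks the β-catenin libraries overlapped (mean 42.5% in CEpiLC, 27.8% in SOX2-ON) and TCF7L1 was higher in naive ESC (25.5%) than in CEpiLC (20.8%). List length, which differs between conditions, moves with these full-list shares, and its part in them was not tested. In the equal-length lists, CEpiLC means were higher at sites present in all 12 SOX2 libraries than at the CEpiLC-only sites. They were 38.6% for LEF1, 25.5% for TCF7L2 and 24.1% for TCF7L1.

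**Figure D2:**
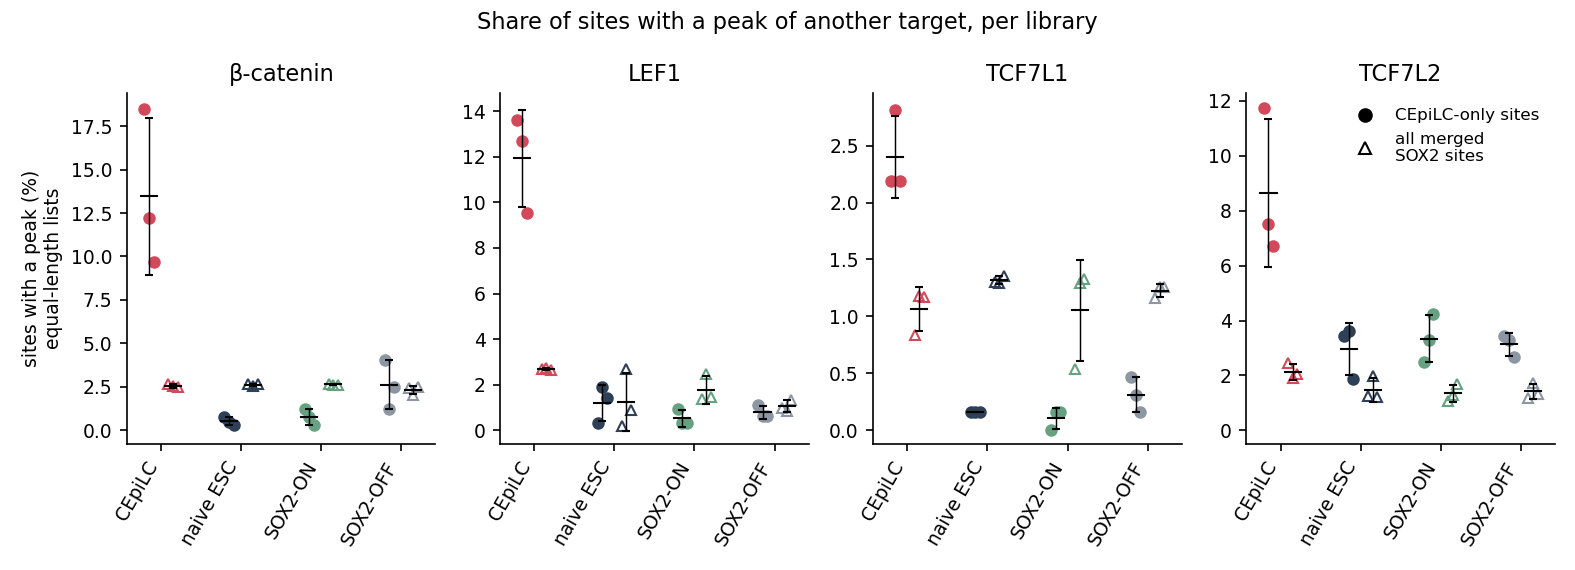
Share of the 639 sites (percent) with a β-catenin, LEF1, TCF7L1 or TCF7L2 peak in the equal-length list of each library, with filled points for the 3 replicates of each condition, open triangles for all merged SOX2 sites, and bars for the mean and SD. The β-catenin points for CEpiLC lie between 9.70% and 18.5%, above all 9 other β-catenin libraries.

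In the plot of shares by condition the gap between CEpiLC and the rest is wide for β-catenin and LEF1 and small in absolute terms for TCF7L1. The 3 SOX2-OFF β-catenin libraries (mean 2.61% ± 1.41, SD, n = 3) met the highest SOX2-ON library (1.25%) at their lower end.

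Site by site, 26 of the 639 (4.07%) had β-catenin in 3 of 3 CEpiLC libraries and 0 of the 9 others, against a background of 0.174% of all merged SOX2 sites. For LEF1 the number was 27 (4.23%, background 0.35%), for TCF7L2 3 (background 0.0967%) and for TCF7L1 1 (background 0.0312%). At least 1 of the 4 targets had a peak only in CEpiLC at 43 sites (6.73%, background 0.567%), and β-catenin and LEF1 both did at 11. No site found only in naive ESC (1132) or only in SOX2-ON (1708) had a CEpiLC-only peak of any of the 4 targets. By construction, those sites held none of the SOX2 peaks kept for the CEpiLC libraries. The part of site width in these counts was not tested. Whatever the other libraries held, β-catenin was in 3 of 3 CEpiLC libraries at 51 sites (7.98%, background 1.68%) and LEF1 at 40 (6.26%, background 1.55%). TCF7L2 was so at 24 (3.76%, background 1.06%) and TCF7L1 at 2 (0.313%, background 0.43%). At the 816 sites present in all 12 SOX2 libraries the shares were 34.3% (β-catenin), 27.3% (LEF1), 14.3% (TCF7L2) and 14.2% (TCF7L1). In the opposite direction and again in the equal-length lists, β-catenin found only in naive ESC was present at 0 of the 639 sites (background 0.548%) and at 167 of the 1132 sites found only in naive ESC. Leaving out replicate 3 of every condition, which asks for a peak in fewer libraries, gave counts of 43 (β-catenin), 48 (LEF1), 10 (TCF7L2) and 6 (TCF7L1). No background shares are given for these looser counts, so they cannot be read as an excess.

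Each site was also tested with a two-sided exact permutation test of peak rank, 3 CEpiLC against 9 other libraries, over all merged sites with a peak of the target. None of the 639 passed an adjusted p of 0.05 for any target, and the smallest adjusted p was 0.0889 for β-catenin and 0.0821 for LEF1. With 220 assignments the smallest p is 0.004545, so an adjusted p could reach 0.05 only where at least 9.09% of the tested sites had this p. At an unadjusted p below 0.05, β-catenin was higher in CEpiLC at 74 of the 639 sites and lower at 0 (backgrounds 0.996% and 0.155%), and LEF1 was higher at 65 and lower at 0 (backgrounds 1.44% and 0.000799%). TCF7L2 was higher at 22 and lower at 1 (backgrounds 0.681% and 0.0407%), and TCF7L1 was higher at 9 and lower at 0 (backgrounds 0.273% and 0.0687%). Of the 639 sites, 76 had no peak of the 4 other targets in any CEpiLC full list.

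The strongest β-catenin site of the set lay at chr11:96316161-96317119, in intergenic sequence 1749 bp upstream of Hoxb4 (ENSMUSG00000038692.8), a homeobox gene of the trunk. SOX2 fold there was 15.4, 15.3 and 12.2 in CEpiLC, and the only other SOX2 peak was in naive ESC replicate 1, at 8.92. β-Catenin fold was 55.2, 52.8 and 30.1 in CEpiLC. The highest β-catenin fold elsewhere was 12.9, in naive ESC replicate 1, and SOX2-OFF had a single peak of 4.30. LEF1 fold at this site was 29.6, 36.5 and 27.3 in CEpiLC against at most 13.5 in another library. TCF7L1 fold was 9.52, 25.2 and 12.3 and TCF7L2 fold 12.6, 16.2 and 8.01 in CEpiLC, so that all 5 targets had a peak in each of their CEpiLC full lists at this site.

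A site at chr7:16174041-16174452, 1056 bp upstream of Meis3, was among the 39 with no SOX2 peak in the other 9 full lists. Meis3 encodes a TALE homeodomain cofactor of HOX proteins. SOX2 fold was 13.3, 17.2 and 12.8 in CEpiLC. β-Catenin fold was 38.4, 31.0 and 23.2 in CEpiLC, against peaks of 2.60 and 4.73 in SOX2-ON replicates 1 and 3 and no peak in naive ESC or SOX2-OFF. LEF1 fold was 15.9, 22.7 and 10.97 in CEpiLC, with 1 other peak, of 4.70, in naive ESC replicate 3. The CDX, T/BRA and MEIS matches in its window are shown in capitals above.

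Hes7, an oscillating transcriptional repressor of the segmentation clock, had a site 1324 bp upstream at chr11:69118766-69119339. SOX2 fold there was 6.43, 15.4 and 18.7 in CEpiLC, and naive ESC replicates 1 and 2 had peaks of 8.03 and 4.72, SOX2-ON replicate 3 of 3.91 and SOX2-OFF replicates 2 and 3 of 4.23 and 4.91. CEpiLC replicate 1 was thus below naive ESC replicate 1. β-Catenin fold was 19.0, 21.7 and 19.4 in CEpiLC and at most 7.71 in the other libraries.

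A site in an intron of Mitf, which encodes a regulator of melanocytes and retinal pigment epithelium, lay 57682 bp from the start at chr6:97864452-97865041. SOX2 fold was 15.6, 16.2 and 19.3 and β-catenin fold 40.1, 30.6 and 19.3 in CEpiLC, with β-catenin at most 9.07 in the other libraries. The strongest SOX2 site of all 639, in the Rbfox3 intron at chr11:118694945-118695807, had SOX2 folds of 42.7, 38.9 and 43.4 and β-catenin folds of 44.6, 24.3 and 9.86 in CEpiLC. Elsewhere it had β-catenin only in naive ESC replicate 1, at 7.62. The site near Lrrc18, at chr14:32986635-32987149, had SOX2 folds of 23.3, 17.3 and 28.4 and β-catenin folds of 31.7, 18.8 and 14.7 in CEpiLC, and naive ESC had β-catenin at 9.23, 3.65 and 9.44.

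The other 4 of the 10 leading β-catenin sites were near Gm525, Gm9376, Sipa1l3 and Ndfip2. Besides Rbfox3, Lrrc18 and Mitf, the 10 strongest SOX2 sites lay near Zfp507, Irx1, Pctp, Bcas3, Pacsin1, Ldlrad4 and Zscan21. In the full CEpiLC lists β-catenin fold was 14.6, 7.03 and 6.42 at the Zfp507 site, 22.35, 11.5 and 6.85 at Pctp, and 12.6, 9.49 and 9.81 at Pacsin1. At the Ldlrad4 site it was 19.2, 16.7 and 6.52 in CEpiLC, and SOX2-OFF replicate 3 had 12.4. At the Irx1 site it was 17.7 and 4.30 in CEpiLC replicates 1 and 2, and naive ESC replicate 1 had 30.6. The Bcas3 and Zscan21 sites each had a single CEpiLC β-catenin peak, of 5.63 in replicate 1 and 4.33 in replicate 3.

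The 639 sites lay close to genes. Promoters, defined as sequence within 1 kb of a protein-coding start, held 196 of the 639 (30.7%), against 10.54% of all merged sites, 2.56% of sites found only in naive ESC and 2.05% of those found only in SOX2-ON. Sites occupied in all 12 libraries were at promoters in 15.1% of cases. Introns held 199 of the 639 (31.1%) and intergenic sequence 214 (33.5%), while coding exons held 11, noncoding exons 11 and UTRs 8. The median distance to a protein-coding start was 7108 bp, against 29953 bp for all merged sites and 67996 bp for sites found only in SOX2-ON. Chromosome 11 held 79 of the 639 (12.4%) and 6.20% of all merged sites. The 639 sites had 601 different nearest genes, and Foxb1, a forkhead gene of the neural tube, was nearest to 4 of them.

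**Figure D3:**
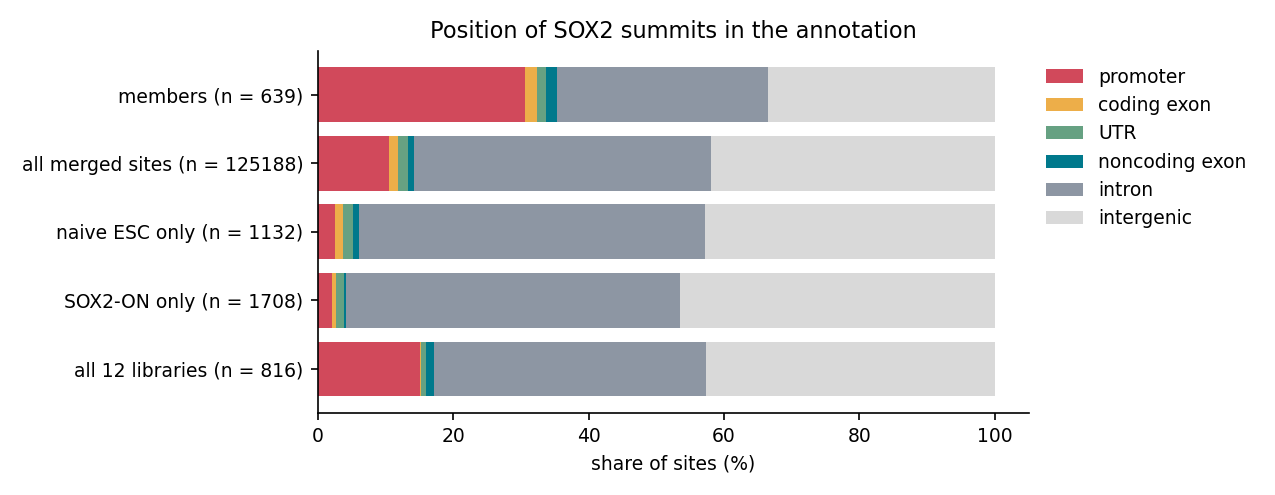
Share of sites (percent) in each annotation class for the 639 CEpiLC-only sites (members), all merged SOX2 sites, the sites found only in naive ESC or only in SOX2-ON, and the sites present in all 12 libraries. Promoters hold 30.7% of the 639 sites and 10.54% of all merged sites.

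The plot of annotation classes shows that the larger promoter share comes with smaller intron and intergenic shares. Within 100 bp of the summit the median GC content was 53.2%, against 46.8% in all merged sites and 45.3% in windows 5000 bp away. At least 5 CpG dinucleotides were present in 46.8% of the 639 windows, 19.4% of all merged sites and 7.51% of sites found only in naive ESC, and among the 196 promoter sites the share was 91.3% (179 sites) and among the 443 others 27.1%.

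Promoter sites and the others are described separately. Of the 196 promoter sites, 91 (46.4%) had a SOX2 peak in at least 2 of the 3 SOX2-OFF full lists, against 126 of the 443 sites outside promoters (28.4%). β-Catenin or LEF1 was present in at least 2 of 3 CEpiLC libraries at 10 promoter sites (5.10%) and at 83 sites outside promoters (18.7%). Of the 26 sites with β-catenin only in CEpiLC, 1 was at a promoter. Median SOX2 fold in CEpiLC was 6.65 at promoter sites and 7.33 at the others.

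The SOX motif was found within 100 bp of the summit at 301 of the 639 sites (47.1%), against 25.7% of windows 5000 bp away. The share was 41.6% at all merged sites, 58.5% at sites found only in naive ESC, 77.9% at sites found only in SOX2-ON and 64.6% at sites present in all 12 libraries. Among the 409 sites with a SOX match within 250 bp, the median distance from the summit was 37.5 bp, against 97.5 bp in the distant windows. The OCT motif was in 4.85% of the 639 and 4.31% of the distant windows, and the SOX-OCT composite of pluripotent cells in 1.25%, against 4.06% of sites found only in naive ESC and 8.82% of those in all 12 libraries.

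The CDX motif, the letters bound by caudal homeobox proteins, was in 89 of the 639 windows (13.9%). Its share was 7.01% in all merged sites, 6.71% in sites found only in naive ESC, 8.31% in those found only in SOX2-ON, 3.68% in those in all 12 libraries and 6.66% in windows 5000 bp away. Outside promoters 82 of 443 sites (18.5%) held a CDX match, against 7.41% of all merged sites outside promoters. At promoters the shares were close, with 7 of 196 sites (3.57%) against 3.68% of all merged promoter sites.

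**Figure D4:**
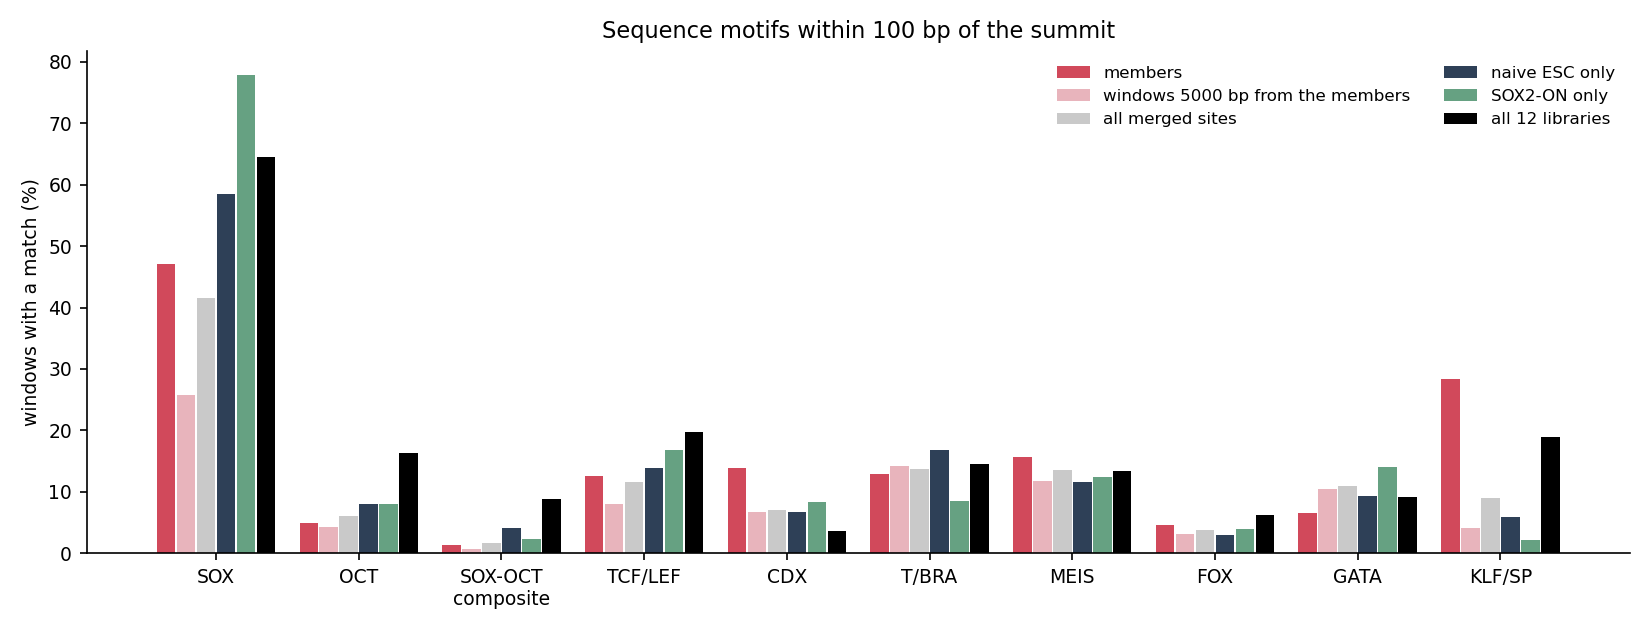
Share of windows (percent, 100 bp on either side of the SOX2 summit) with a match to each of 10 motifs, for the 639 CEpiLC-only sites (members), windows 5000 bp away, all merged sites and the other site groups. The CDX share is 13.9% at the 639 sites and 6.66% in the windows 5000 bp away, and the SOX share is 47.1% and 25.7%.

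The plot of motif shares also shows KLF/SP, the GC-box letters, in 181 of the 639 windows (28.3%) against 8.98% of all merged sites. At promoters 106 of 196 sites (54.1%) held a match, against 39.3% of all merged promoter sites, and outside promoters the shares were 16.9% and 5.41%. TCF/LEF was in 80 windows (12.5%), against 11.6% of all merged sites and 7.99% of windows 5000 bp away. T/BRA was in 12.8% against 14.3% of windows 5000 bp away, GATA in 6.57% against 10.4%, FOX in 4.54% against 3.13% and MEIS in 15.7% against 11.8%. Sites are not replicates of a condition, so these shares carry no test, and the motifs differ in how often GC-rich sequence holds them.

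**Figure D5:**
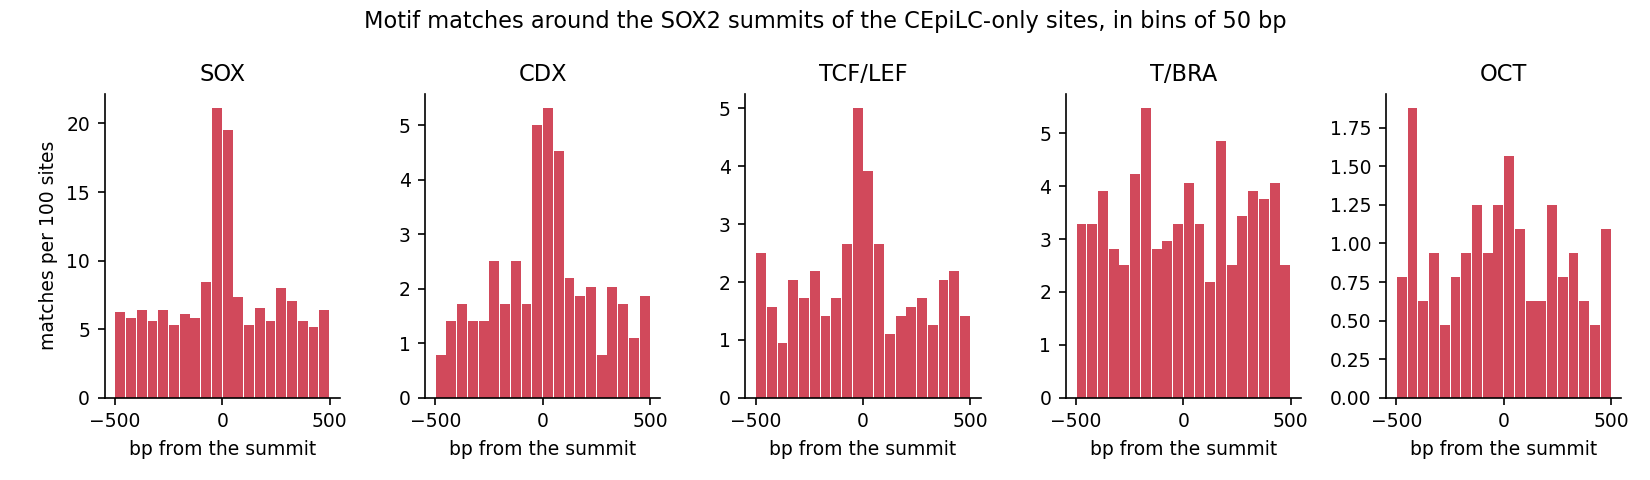
Motif matches per 100 sites in bins of 50 bp along the distance from the SOX2 summit (bp), for the 639 CEpiLC-only sites. SOX matches reach 21.1 per 100 sites in the bin to the left of the summit, against 6.26 in the bin centred 475 bp to the left.

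The plot of matches by distance has its maximum at the summit for SOX, and CDX rose in the same 2 central bins to 5.01 and 5.32 matches per 100 sites, against 0.783 and 1.88 in the outermost bins. The median distance of CDX matches within 250 bp was 80 bp, against 124 bp in the distant windows. TCF/LEF matches lay at a median of 68.5 bp against 121 bp. T/BRA matches lay at 127.5 bp against 112.5 bp, without a central maximum in the plot.

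TCF/LEF letters were read separately at sites with and without β-catenin or LEF1. Of the 93 sites with β-catenin or LEF1 in at least 2 of 3 CEpiLC libraries, 41 (44.1%) held a TCF/LEF match, against 39 of the 546 other sites (7.14%). CDX matches were in 20 of the 93 (21.5%) and 12.6% of the 546, and SOX matches in 41.9% and 48.0%. At promoters lay 10.8% of the 93 and 34.1% of the 546, and the median SOX2 fold was 7.90 against 6.91.

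Genes of the caudal epiblast and its derivatives were grouped in lists, and a gene was counted when a site lay within 50 kb of its start. Over all 21924 protein-coding genes the background was 5.14%. Of the 39 Hox genes, which set position along the body axis, 38 had a site within 50 kb. The Hox genes lie in dense clusters, and only 9 of the 639 sites account for these 38 genes, among 257 SOX2 sites in the same intervals (3.5%, against 0.51% of all merged sites). No site found only in naive ESC (1132 of the 125188 merged sites) or only in SOX2-ON (1708) lay within 50 kb of a Hox gene. Both groups are small shares of the merged sites, so their absence is not read as a contrast. Within 10 kb the number of Hox genes was 13, against 433 of all 21924 protein-coding genes.

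The 9 Hox sites lay in all 4 clusters, and 8 of them were within 5 kb of a Hox start. In the Hoxa cluster the site was at the Hoxa5 promoter (chr6:52202740-52204486), with SOX2 folds of 5.21, 6.46 and 5.71 in CEpiLC. SOX2-ON replicate 3 (6.10) and naive ESC replicate 1 (5.28) had peaks within the CEpiLC range there. In the Hoxb cluster, beside the Hoxb4 site above, a site lay in a noncoding exon 16519 bp upstream of Hoxb13, with SOX2 folds of 6.44, 9.84 and 5.77.

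The Hoxc cluster held 3 sites. That in an intron of Hoxc4 (chr15:103034823-103036750) was the strongest of these, with SOX2 folds of 12.6, 11.9 and 7.78 and β-catenin folds of 20.8, 8.33 and 5.06 in CEpiLC, and naive ESC replicate 1 had a SOX2 peak of 9.52. The Hoxc6 promoter site had SOX2 folds of 5.71, 6.81 and 5.98, and the site near Hoxc12 had 8.64, 6.18 and 5.55. In the Hoxd cluster a site 2244 bp upstream of Hoxd10 (chr2:74689213-74689851) had SOX2 folds of 6.52, 7.22 and 6.15, with peaks elsewhere only in SOX2-ON replicates 2 and 3 (2.98 and 5.71). The Hoxd10 promoter site had 4.97, 6.38 and 7.09, and the site in an intron of Hoxd3 4.94, 6.40 and 5.79. Across the 9 Hox sites, 4 had no SOX2-OFF peak in the full lists, against 186 of all 639 sites. Any β-catenin peak in the equal-length CEpiLC lists was present at 2 of the 9. Of the 639, 138 had a β-catenin peak in at least 1 of the 12 equal-length lists, 6 of them in no CEpiLC list.

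Among the Cdx genes, which act upstream of posterior Hox genes, 1 of 3 had a site. The Cdx2 site lay 2136 bp upstream at chr5:147309135-147309708, with SOX2 folds of 8.53, 5.96 and 5.83 in CEpiLC, 3.41 and 4.61 in naive ESC replicates 1 and 3, and no peak in SOX2-ON or SOX2-OFF. Its β-catenin folds were 11.8 and 6.63 in CEpiLC replicates 1 and 2, with no peak in replicate 3. Of 9 Meis and Pbx genes, 2 had a site, Meis3 and Meis1, the latter in an intron with SOX2 folds of 6.24, 6.96 and 7.54.

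Of 21 genes of the caudal epiblast and primitive streak, 7 had a site within 50 kb (33.3%). They were served by 8 of the 639 sites among 318 SOX2 sites (2.52%). A site could count in more than 1 list, so these 8 need not be distinct from the Hox sites. The 7 genes were Nkx1-2, Wnt3, Evx1, Evx2, Sp8, Grhl3 and Gbx2. The site 18 bp from the start of Evx1, an even-skipped homeobox gene of the streak, had SOX2 folds of 5.52, 8.28 and 6.05 and β-catenin folds of 14.5, 12.98 and 12.7 in CEpiLC. SOX2-ON replicate 1 had β-catenin at 14.2 there, within the CEpiLC range. At Grhl3, a grainyhead gene needed for neural tube closure, LEF1 folds were 7.19, 13.5 and 15.5 in CEpiLC and at most 6.88 in another library.

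Of 25 neural and preneural genes, 9 had a site (36.0%), among them Sox1, Pax6, Zic1, Six3, Hes3, Irx3, Irx5 and Msx1. They were served by 12 of the 639 sites among 366 SOX2 sites (3.28%). Median SOX2 folds at these 12 ran from 5.38 to 11.1. The site 513 bp from the start of Hes3, a repressor of neural differentiation, had SOX2 folds of 9.65, 11.5 and 10.7 in CEpiLC and 5.46, 4.66 and 5.97 in the 3 other libraries with a peak. None of the 12 had β-catenin or LEF1 in at least 2 CEpiLC libraries, against 93 of all 639 sites (14.55%). A SOX2-OFF peak was in at least 1 full list at 11 of the 12, and in none at 186 of the 639. At least 5 CpG dinucleotides were present at 9 of the 12 and at 46.8% of the 639.

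Paraxial mesoderm genes had 3 of 18 near a site (Hes7, Meox1 and Foxc2) and early streak and mesendoderm genes 1 of 13 (Gata6). In the WNT list 1 of 18 genes had a site, Tcf7l2, whose intronic site had SOX2 folds of 12.3, 12.3 and 9.75 and β-catenin folds of 16.5, 5.86 and 7.36 in CEpiLC. In the FGF list 4 of 17 genes had a site, Fgf3, Fgf15, Fgfr2 and Etv5. The site 11077 bp upstream of Fgf15, a growth factor gene, had SOX2 folds of 6.86, 6.34 and 9.16, β-catenin folds of 11.8, 11.3 and 11.6 and LEF1 folds of 7.26, 15.01 and 12.2 in CEpiLC. β-Catenin elsewhere was present only in SOX2-OFF replicates 1 and 3, at 7.64 and 5.14. BMP genes had 2 of 15 near a site (Bmpr2 and Id1) and retinoic acid genes 0 of 16.

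Pluripotency genes had 1 of 18 near a site, Fgf4, through the Fgf15 site, a share (5.56%) near the background of 5.14%. Sites found only in naive ESC lay within 50 kb of 7 of these 18 genes (38.9%), against 7.81% of all protein-coding genes. In groups outside development, 25 of 1134 olfactory receptor genes (2.21%) had a site within 50 kb, as did 8 of 98 ribosomal protein genes (8.16%). In all, 40 of the 639 sites lay within 50 kb of a listed gene.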

How the data were processed

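The 60 immunoprecipitated libraries (5 targets, 4 conditions, 3 biological replicates each, grouped by the sample titles) had single-end reads of 76 bp. No peak list of the 4 input samples was analysed here. The authors aligned reads to mm10 with BWA in the nf-core ChIP-seq pipeline and called narrow peaks in each library separately with MACS2 at its default q-value cutoff. The pairing with inputs is not given in the sources used here. The deposited fold is the ratio of summit signal to local background, and the deposited −log10 p-value and q-value belong to the summit. The deposited score is a rescaled q-value. These values were used to rank peaks and to describe them.

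For the 4 other targets each list was shortened to the shortest list of that target, ranked by fold. Rank scores fell from near 1 at the strongest peak to 0 where no peak was listed, and were compared by exact permutation (220 assignments) with Benjamini-Hochberg adjustment over all merged sites with a peak of the target. Sites found only in a single condition were described by the middle of that condition's 3 SOX2 summits. All other merged sites, including those in all 12 libraries, were described by the summit of their highest-ranked SOX2 peak. The groups compared were thus centred by different rules. GENCODE M21 basic gene models and GRCm38 sequence were used. Mean shares of sites carry no test. The 3 replicates of a condition came from separate experiments, per the study's methods. Read depth is unknown and no counting interval could be given.

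The sites and gene lists were chosen with earlier results of these data known. Sites named in the text are the 10 with the highest lowest-replicate SOX2 rank in CEpiLC, the 10 with the highest lowest-replicate β-catenin rank among those with β-catenin only in CEpiLC, and those within 50 kb of a listed gene, of which 1 is not reported here by name. The permutation test was tested, for its unadjusted p, on simulated data with 200 changed sites per target. Python 3.11.15, pandas 2.3.3, numpy 2.4.6, scipy 1.17.1 and matplotlib 3.10.9 were used. Alternatives were the −log10 p-value as rank, other list lengths, a minimum overlap of 10% of the site, motif windows of 50 and 250 bp, gene windows of 10 and 100 kb, leaving out each replicate and a replicate block.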

Additional observations from a re-analysis of the deposited data

How the results depend on the processing

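The number of sites depended on list length and on how many libraries had to carry the peak. It was 639 as reported, 528 when peaks were ranked by −log10 p-value (433 of the 639 kept), 404 with 10000 peaks per library (199 kept), 138 with all deposited peaks (39 kept), 39 when absence was judged in the full lists, and 1347 to 2162 without 1 replicate (618 to 635 kept). Sites with a peak of another target only in CEpiLC numbered, with all deposited peaks, 1 (β-catenin), 2 (LEF1), 0 (TCF7L1) and 5 (TCF7L2). With at most 10000 peaks there were 42 (β-catenin), 3 (TCF7L1) and 7 (TCF7L2). Ranking by −log10 p-value gave 2 for TCF7L1. Leaving out 1 replicate, β-catenin ranged from 30 to 43, LEF1 from 34 to 48, TCF7L1 from 2 to 6 and TCF7L2 from 7 to 10. No background shares are given for the counts of other targets under these alternatives.

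Mean shares moved with list length. With all deposited peaks, the β-catenin means of CEpiLC, naive ESC, SOX2-ON and SOX2-OFF were 42.5%, 21.4%, 27.8% and 22.5%. The LEF1 means in this order were 23.0%, 20.4%, 20.97% and 11.7%, the TCF7L1 means were 20.8%, 25.5%, 14.5% and 15.7%, and the TCF7L2 means were 37.4%, 15.02%, 17.4% and 11.9%. With at most 10000 peaks, again in this order, β-catenin had means of 33.0%, 2.30%, 4.12% and 6.62%. TCF7L1 had means of 6.62%, 1.93%, 2.76% and 4.02% and TCF7L2 of 11.4%, 4.59%, 4.28% and 3.91%. The LEF1 mean was then 17.4% for CEpiLC, 0.939% for SOX2-ON and 1.30% for SOX2-OFF.

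The difference between sites and windows 5000 bp away changed sign for OCT (-0.79 percentage points) and TCF/LEF (-0.25) within 250 bp of the summit and for T/BRA (0.23) within 50 bp. Of all 21924 protein-coding genes, 433 had a site within 10 kb and 1921 within 100 kb. Listed genes within 10 kb of a site numbered 13 for Hox, 7 for neural and preneural and 3 for caudal epiblast and streak. They numbered 1 for paraxial mesoderm, 0 for pluripotency, 2 for FGF and 1 for BMP, and 3 WNT genes had a site within 100 kb. The causes of these changes were not tested. Among all results under alternatives, 104 moved by less than the spread or threshold set for them, 64 moved by more and 3 changed sign. The 104 include the counts of sites at an adjusted permutation p below 0.05, which were 0 in each setting. The limit on the smallest p bears on those counts, so they do not measure stability.

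The correlation of same-numbered libraries was over 0.1 in 0, 1, 0, 6 and 5 of 18 pairs for SOX2, β-catenin, LEF1, TCF7L1 and TCF7L2. Its highest value was 0.275, for TCF7L1. Its median was 0.011 for SOX2 and up to 0.0488 for TCF7L2, and different-numbered libraries had medians from -0.0391 to -0.00825. The main test did not pair libraries by replicate number, and whether same-numbered libraries shared an experiment was not tested. A replicate block allows 64 assignments and a smallest p of 0.0156, which 31.25% of the tested sites would have to reach for an adjusted p of 0.05, so its 0 calls say nothing about stability. At an unadjusted exact permutation p below 0.05 with the block, β-catenin was higher at 48 of the 639 sites and LEF1 at 37. TCF7L1 was higher at 2 and TCF7L2 at 7. Without the block these counts were 74, 65, 9 and 22. Of the 639 sites, those with a peak of the target numbered 138, 133, 34 and 109. Over all merged sites with a peak of the target, the block gave 855 of 10817, 1102 of 11066, 147 of 5356 and 437 of 8156.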
